A study of Mus musculus with 24 samples.

Results

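The genes described here are 30 genes that mark T lymphocytes or work in them, taken by gene symbol from the 54532 genes of a count table of mouse whole lung. All 30 symbols were found. The table came from RNA-seq of the lungs of male C57BL6/j mice, labelled young, after 2 days of normoxia or hypoxia combined with ABT-263 (50 mg/kg/day) or vehicle. ABT-263, also called navitoclax, blocks the survival proteins BCL-2, BCL-XL and BCL-W and is given as a senolytic. The 24 libraries formed 4 groups of 6, namely normoxia with vehicle (the control), normoxia with ABT-263, hypoxia with vehicle and hypoxia with ABT-263. All groups shared sex, strain, tissue and day, and no genetic change is labelled in any of them. The labels number no animals, so p-values measure the spread between these libraries, which may in part be technical. The replicate numbers used below are not from the labels and only name the libraries of a group in their listed order.

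T cells recognise antigen with a receptor made of an alpha and a beta chain, which signals through the CD3 chains and the zeta chain. The coreceptors CD4 and CD8 bring the kinase LCK to the receptor. LCK activates the kinase ZAP70, which phosphorylates the adaptor LAT. Costimulatory receptors such as CD28 and CD27 set how strongly the cell answers. TCF7, LEF1, BCL11B and GATA3 are transcription factors that build and keep T cell identity, and the interleukin 7 receptor keeps resting T cells alive. The lung holds T cells in its tissue and in the blood of its capillaries. Several of the genes are not specific to T cells: natural killer (NK) cells also use Cd247, Cd2, Txk and other signalling genes, innate lymphoid cells use Il7r and Gata3, and some dendritic cells carry Cd8a. In whole tissue, fewer T cells and less RNA per T cell cannot be told apart.

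The Cd3g, Cd3d and Cd3e genes, whose products form the CD3 complex, lie together on chromosome 9 within 40056 bases (GRCm38), and Cd3g and Cd3d are read in opposite directions from starts 1355 bases apart. Their promoters are shown because these neighbours were measured side by side, with that of Il7r for comparison. The windows run from 250 bases before to 50 bases after the start, 5′ to 3′ on the strand of the gene, from RefSeq (GRCm38.p6). Capitals mark every match, on either strand, to AGGAAG (the ETS factor core), TGTGGT (the RUNX core) or CTTTGA (the TCF/LEF core), which overlap none of each other here. The windows are chr9:44980382-44980681 (minus strand) for Cd3g, chr9:44981536-44981835 (plus strand) for Cd3d, chr9:45009562-45009861 (minus strand) for Cd3e and chr15:9529827-9530126 (minus strand) for Il7r.
Cd3g: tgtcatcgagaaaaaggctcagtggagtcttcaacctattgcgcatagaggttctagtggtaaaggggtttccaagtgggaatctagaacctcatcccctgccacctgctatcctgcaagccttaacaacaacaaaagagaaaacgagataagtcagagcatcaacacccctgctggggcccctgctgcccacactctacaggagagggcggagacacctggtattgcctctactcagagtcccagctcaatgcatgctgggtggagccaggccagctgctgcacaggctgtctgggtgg
Cd3d: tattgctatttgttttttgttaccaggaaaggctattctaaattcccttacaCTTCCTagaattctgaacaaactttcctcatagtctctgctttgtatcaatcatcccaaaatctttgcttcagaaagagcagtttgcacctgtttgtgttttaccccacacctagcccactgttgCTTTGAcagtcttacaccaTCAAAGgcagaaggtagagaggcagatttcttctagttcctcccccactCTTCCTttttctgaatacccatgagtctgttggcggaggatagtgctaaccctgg
Cd3e: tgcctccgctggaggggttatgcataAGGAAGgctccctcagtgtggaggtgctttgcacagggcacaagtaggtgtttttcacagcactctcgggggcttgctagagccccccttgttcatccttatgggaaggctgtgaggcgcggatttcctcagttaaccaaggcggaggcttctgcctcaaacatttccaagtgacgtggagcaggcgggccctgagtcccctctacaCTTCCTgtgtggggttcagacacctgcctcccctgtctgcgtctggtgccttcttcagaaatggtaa
Il7r: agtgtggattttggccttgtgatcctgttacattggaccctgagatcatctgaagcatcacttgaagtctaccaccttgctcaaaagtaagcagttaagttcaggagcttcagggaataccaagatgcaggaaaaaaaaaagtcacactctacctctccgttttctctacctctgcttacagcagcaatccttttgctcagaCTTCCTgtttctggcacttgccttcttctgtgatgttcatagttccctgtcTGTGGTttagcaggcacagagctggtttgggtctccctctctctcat
Cd3d held 2 ETS and 2 TCF/LEF matches, Cd3e held 2 ETS matches, Il7r held 1 ETS and 1 RUNX match, and Cd3g held none of the 3. RefSeq gave 31 promoters for 21 of the 30 genes. The ETS letters occurred in 16 of these 31 and in 35.4% of all 32851 promoters of this length. The TCF/LEF letters occurred in 8 of 31 and in 16% of all, the RUNX letters in 5 of 31 and in 16.8%, and TATAAA in 5 of 31 and in 13.6%. A match describes the letters and does not show that a factor binds.

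T cell transcripts were scarce in these lungs. Levels are given as CPM, counts scaled to a common library size with trimmed-mean (TMM) factors, and the libraries held between 12643500 and 17295200 expected counts. The 30 genes summed to 221 ± 28.6 CPM in the control group (SD, n = 6). Per kilobase of exon, the control level was highest for Trbc2, a constant region of the receptor beta chain, at 24.9 CPM per kilobase. Cd2, an adhesion receptor, stood at 9.97 on that scale, Cd3d at 8.29, Tcf7 at 8.19, Trac, the alpha chain constant region, at 7.54 and Lck at 6.90. Cd3e, with 18 to 101 counts per library, and Trac, with 20 to 177, were detected in every library. The costimulatory receptors Cd28 and Icos and the inhibitory receptor Ctla4 were at the other end. Cd28 had 0 to 5 counts per library, Icos 0 to 7 and Ctla4 0 to 6, and these 3 did not pass the filter on low counts, which left 27 genes to test. Changes in those 3 were not detectable at this depth. Ubash3a, a negative regulator of receptor signalling, passed narrowly: only 3, 3, 1 and 0 libraries reached the filter level in the control, normoxia with ABT-263, hypoxia with vehicle and hypoxia with ABT-263.

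Within groups, 2 libraries were taken to stand apart, picked after seeing the data and without a rule set beforehand. Replicate 5 of normoxia with ABT-263 was the highest of its group for 23 of the 27 genes. Its 30 genes summed to 334 CPM, against 166 to 186 in the other 5 libraries of the group. Cd8a was 25.1 CPM there against a median of 6.39 in the other 5, Lck 49.0 against 16 and Cd8b1, the CD8 beta chain, 11.8 in a group whose median was 2.79. Cd4 at 3.82 CPM, Gata3 at 11.1 and Il7r at 9.0 lay inside the range of the other 5. The 15 NK markers summed to 837 CPM in that library against 109 to 160, a ratio of 6.18 to the median of the others, and Gzma, a cytotoxic granule protease, was 357 against a median of 27.6. The receptor Ncr1, which defines NK cells, was 20.2 against 2.58. The 10 markers of all leukocytes summed to 1336 CPM there against 611 to 741, the 10 monocyte and macrophage markers to 489 against 252 to 278 and the 10 neutrophil markers to 354 against 194 to 238. These are ratios of 1.97, 1.90 and 1.73 to the median of the others, beside 1.95 for the 30 T cell genes. The 16 B cell markers were below the range of the others, at 361 CPM against 379 to 498. Replicate 1 of hypoxia with ABT-263 was low, with 84.8 CPM for the 30 genes against 103 to 160 in its group and 163 CPM for the B cell markers against 268 to 377. Its 10 neutrophil markers summed to 616 CPM against 375 to 592. That library was the lowest of its group for 11 of the 27 T cell genes. Replicate 6 of hypoxia with vehicle was the highest of its group for 15 of the 27 but was not taken to stand apart. For calls and list counts in hypoxia under ABT-263, values without the 2 libraries taken to stand apart are given where a call was lost or a value moved by over 1.5 times.

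**Figure D1:**
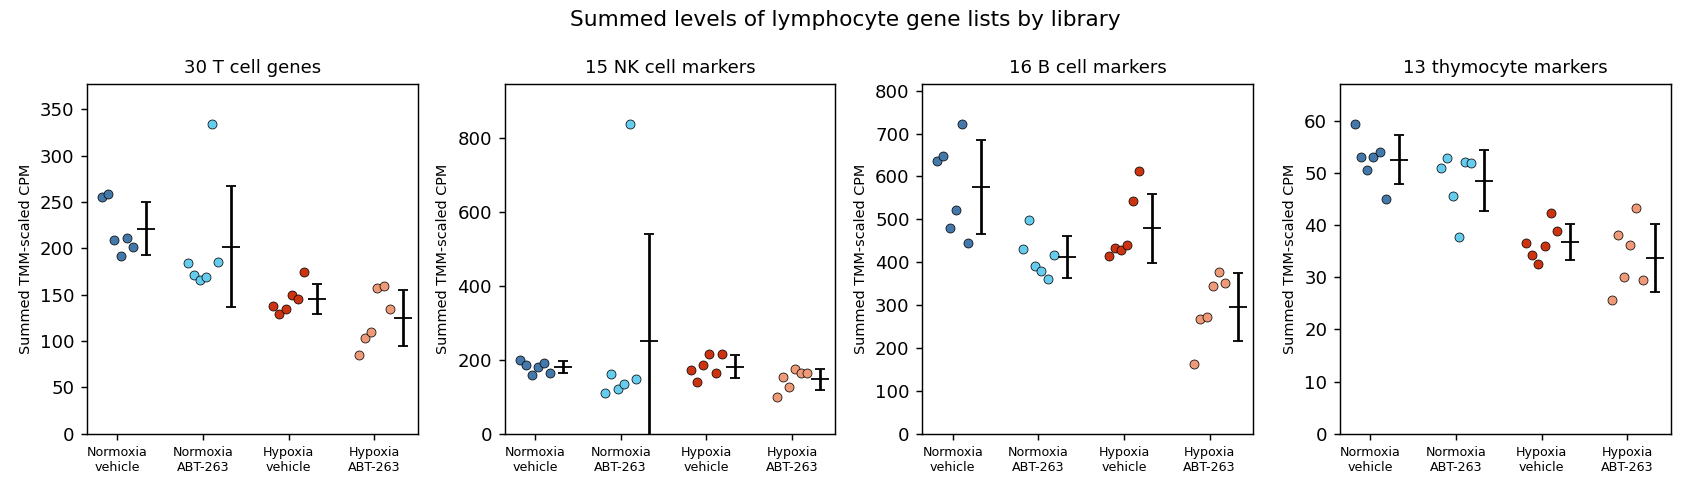
Summed TMM-scaled CPM of the 30 T cell genes and of the NK cell, B cell and thymocyte marker lists in each of 24 libraries (points), with mean and SD of each group of 6 (bars, cut at 0 where the SD exceeds the mean). Replicate 5 of normoxia with ABT-263 reached 334 CPM for the T cell genes and 837 CPM for the NK markers. Cd8b1 and Themis are in both the T cell and the thymocyte sums.

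Other tissues that could add T cell transcripts were looked for by their markers. Foxn1 and Psmb11, which define thymic epithelium, had at most 1 count in any library. Glycam1 and Madcam1, markers of lymph node vessels, also had at most 1. Other genes of their list of lymph node stroma and follicles were present: the list summed to 40.3 ± 8.11 CPM in the control group (SD, n = 6), with 54.8 in replicate 1 and 33.8 to 44.4 in the others. Of its 4 genes tested, 1 fell in hypoxia under vehicle, where 16.8% of all genes fell. It was Cr2, a complement receptor that B cells also carry and that is also on the B cell list, at -0.61 (SE 0.22, edgeR adjusted p = 0.0323). Ptcra, the pre-receptor chain of immature thymocytes, had at most 2. Rag1 and Dntt, the enzymes that rearrange and extend receptor genes in immature lymphocytes, reached 42 and 39 counts in replicate 1 of the control group. That library was also above its group median for 24 of the 27 T cell genes, as replicate 2 was for 25. The part of immature lymphocyte and lymph node transcripts in the results was not tested.

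T cell transcripts were lower in hypoxia across most roles. Of the 27 genes tested, 18 fell and 0 rose against normoxia with vehicle (edgeR quasi-likelihood F test, adjusted p under 0.05 over 16935 genes). Of all genes tested, 16.8% fell and 18.9% rose. The median log2 change of the 27 genes was -0.66, against -0.04 for all genes. DESeq2 and limma-voom also called 18 lower and 0 higher, and none of the genes had a higher value at an unadjusted p under 0.05. The summed level was 145 ± 16.4 CPM in hypoxia with vehicle (SD, n = 6), with 129 to 175 in its libraries and 192 to 259 in the control libraries. Without scaling by TMM, 57.6% of all calls were downward instead of 47.0%, and the 18 calls among the T cell genes stayed at 18.

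Under ABT-263, hypoxia gave 21 lower and 0 higher among the 27 genes, where 19.4% of all genes fell and 21.6% rose. The median log2 change was -0.72, against -0.02 for all genes. The summed level was 202 ± 65.5 CPM in normoxia with ABT-263 and 125 ± 30.5 CPM in hypoxia with ABT-263 (SD, n = 6 each). This count rests in part on the libraries that stood apart: it was 16 without replicate 5 of normoxia with ABT-263 and 10 without that library and replicate 1 of hypoxia with ABT-263. Those 10 were 2 receptor chains, 1 coreceptor, 2 signalling proteins, 1 costimulatory receptor, 1 cytokine receptor and 3 transcription factors. Under vehicle, leaving out these 2 libraries, which are in neither group compared, gave 21. The hypoxia comparisons under vehicle and under ABT-263 share no library, and 17 genes fell in both in the fits to all 24 libraries. They were Trac, Trbc2, Cd3e, Cd3g, Cd247, Cd4, Cd8a, Lck, Zap70, Cd27, Cd5, Cd6, Il7r, Tcf7, Lef1, Bcl11b and Gata3. The share of all genes that fell in both was not counted, so these 17 cannot be set against a background. The interaction of hypoxia with ABT-263 was tested directly and called 0 of the 27 by edgeR, by DESeq2 and by limma-voom, with 0 at an unadjusted p under 0.05 in edgeR. Of all 16935 genes, 0% passed for the interaction and 624 had an unadjusted p under 0.05.

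**Figure D2:**
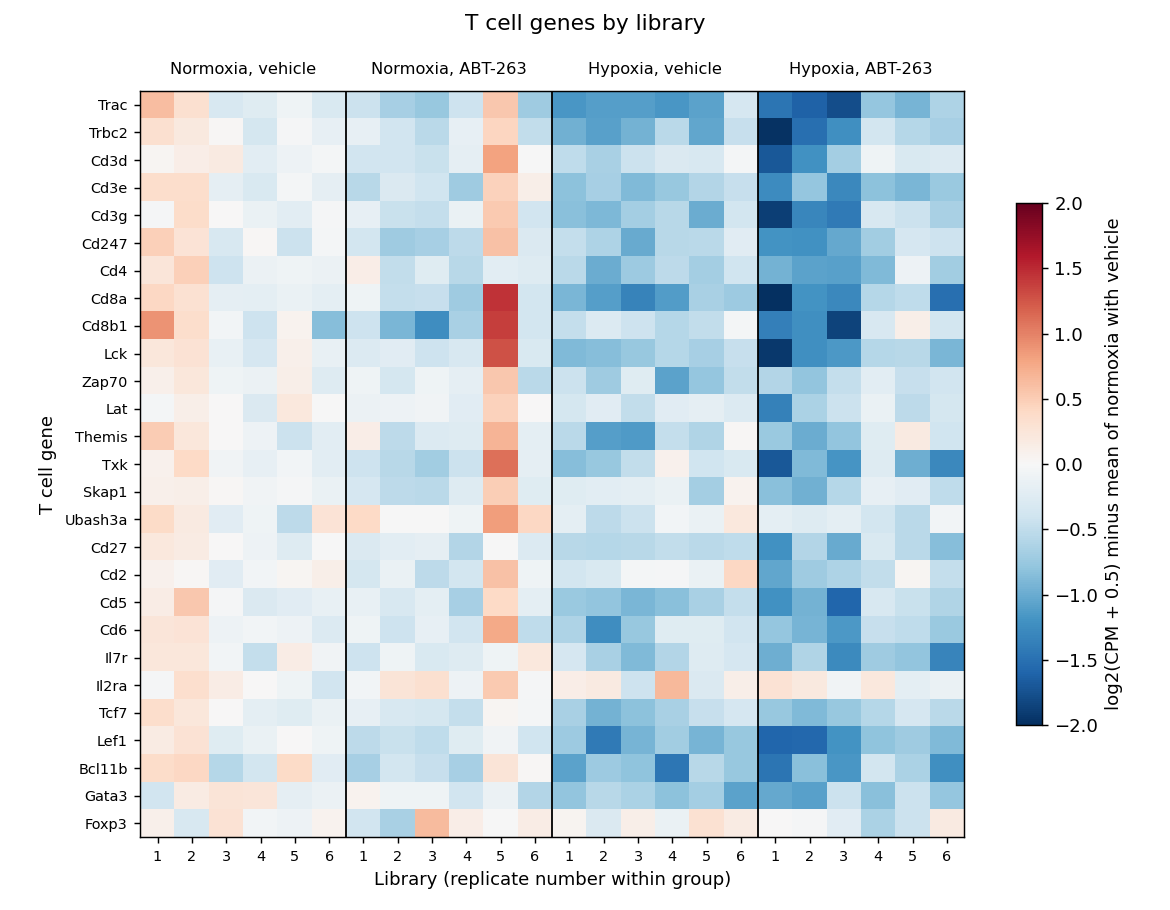
Each row is 1 of the 27 T cell genes tested and each column 1 library, with color for log2(CPM + 0.5) minus the mean of normoxia with vehicle (red higher, blue lower, scale from -2 to 2). Hypoxic libraries are mostly blue, with mixed colors for Il2ra and Foxp3, and replicate 5 of normoxia with ABT-263 is red for Cd8a, Cd8b1, Lck and Txk.

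The antigen receptor chains fell in 5 of 6 genes under vehicle and in 6 of 6 under ABT-263. Trac ran from 5.35 to 10.7 CPM (median 6.07) in the control libraries and from 2.76 to 5.27 (median 2.92) in hypoxia with vehicle, so the groups did not overlap. Its log2 change was -1.11 (SE 0.26, edgeR adjusted p = 0.00188), a 2.16-fold lower level. Trbc2 ran from 13.3 to 21.3 CPM (median 17.0) in the control and from 7.76 to 12.3 (median 8.52) in hypoxia with vehicle, a log2 change of -0.87 (SE 0.22, adjusted p = 0.00319). Trac and Trbc2 were thus lower in every hypoxic library under vehicle than in any control library. Under ABT-263 the log2 change of Trac was -0.91 (SE 0.27, adjusted p = 0.00933) and that of Trbc2 was -0.81 (SE 0.22, adjusted p = 0.00587). There, Trac and Trbc2 overlapped between normoxia and hypoxia, and without both libraries that stood apart Trac gave -0.55 (adjusted p = 0.0929) and Trbc2 -0.49 (adjusted p = 0.0449).

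Of the CD3 chains, Cd3e ran from 3.42 to 5.64 CPM (median 3.98) in the control and from 2.13 to 2.98 (median 2.45) in hypoxia with vehicle. Under ABT-263 it ran from 2.46 to 6.17 (median 3.29) in normoxia and from 1.47 to 2.39 (median 2.14) in hypoxia. Neither pair of groups overlapped. The log2 changes of Cd3e were -0.82 (SE 0.20, edgeR adjusted p = 0.00236) under vehicle and -0.92 (SE 0.21, adjusted p = 0.00108) under ABT-263, and -0.65 (adjusted p = 0.0116) without the 2 libraries. Cd3g, from the same cluster, changed by -0.76 (SE 0.23, adjusted p = 0.00970) under vehicle and by -0.83 (SE 0.23, adjusted p = 0.00594) under ABT-263, where the call was lost without the 2 libraries (-0.48, adjusted p = 0.0512). Cd3d, the third gene of the cluster and the one with 4 motif matches above, gave -0.38 (SE 0.23, adjusted p = 0.198) under vehicle, which did not pass, and -0.61 (SE 0.23, adjusted p = 0.0364) under ABT-263. The latter was -0.35 (adjusted p = 0.165) without replicate 5 of normoxia with ABT-263. Cd247, the zeta chain, fell by 0.63 on the log2 scale under vehicle (SE 0.22, adjusted p = 0.0295) and narrowly passed under ABT-263 at -0.57 (SE 0.23, adjusted p = 0.0496). The latter was -0.29 (adjusted p = 0.242) without replicate 5. Cd3e overlaps other annotated genes on both strands and Cd247 overlaps Pou2f1 on the opposite strand, and whether the counting used strand is unknown here.

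**Figure D3:**
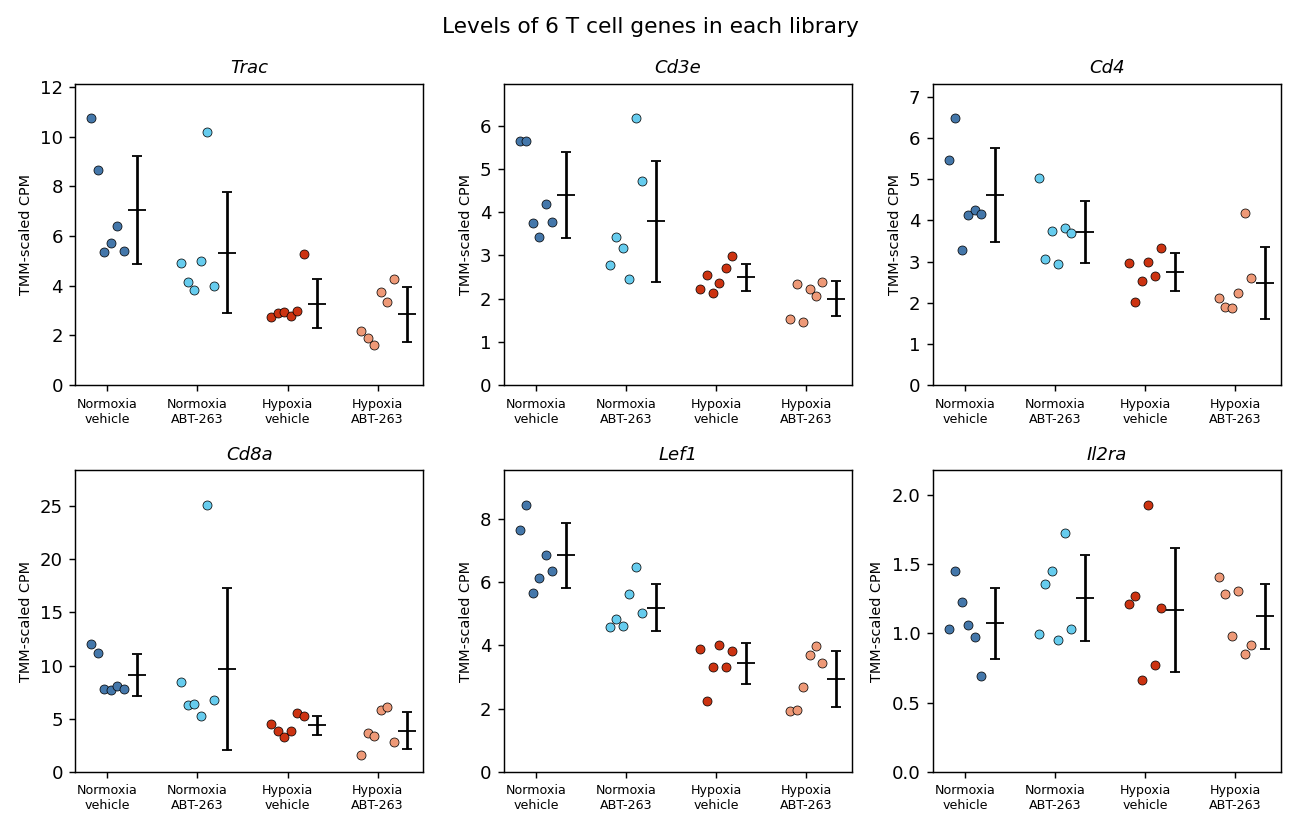
TMM-scaled CPM of 6 T cell genes in each library (points, 6 per group) with mean and SD of each group (bars). Trac, Cd3e, Cd8a and Lef1 do not overlap between normoxia and hypoxia under vehicle, while Il2ra runs from 0.664 to 1.93 CPM over all groups.

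Among the coreceptors, Cd4 and Cd8a fell in both hypoxia comparisons and Cd8b1 in neither. Cd4 ran from 3.29 to 6.48 CPM (median 4.21) in the control and from 2.02 to 3.33 (median 2.80) in hypoxia with vehicle, with 1 hypoxic library above the lowest control library. Its log2 change was -0.75 (SE 0.20, edgeR adjusted p = 0.00377) under vehicle and -0.58 (SE 0.20, adjusted p = 0.0223) under ABT-263, where it gave -0.53 (adjusted p = 0.0661) without both libraries. Cd8a ran from 7.72 to 12 CPM (median 7.93) in the control and from 3.26 to 5.52 (median 4.19) in hypoxia with vehicle, without overlap, a log2 change of -1.05 (SE 0.33, adjusted p = 0.0149). Under ABT-263 Cd8a had the largest change of the 27 genes, -1.34 (SE 0.33, adjusted p = 0.00285), which was -0.78 (adjusted p = 0.0120) without replicate 5 of normoxia with ABT-263 and -0.61 (adjusted p = 0.0239) without both libraries. Cd8b1 ran from 2.14 to 8.31 CPM in the control and from 2.71 to 4.09 in hypoxia with vehicle, so the hypoxic libraries lay inside the control range. Its log2 change was -0.54 (SE 0.42, adjusted p = 0.338) under vehicle and -0.72 (SE 0.44, adjusted p = 0.191) under ABT-263, and the latter turned to 0.14 without both libraries. Cd8a and Cd8b1 lie 35933 bases apart on chromosome 6.

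The signalling proteins fell in 3 of 7 genes under vehicle (Lck, Zap70 and Themis) and in 5 of 7 under ABT-263 (Lck, Zap70, Lat, Txk and Ubash3a). Lck, the kinase that starts receptor signalling, ran from 15.8 to 24.4 CPM (median 19.7) in the control and from 10.6 to 14.4 (median 12) in hypoxia with vehicle. With ABT-263 it ran from 14.9 to 49.0 (median 16.2) in normoxia and from 4.85 to 13.5 (median 9.56) in hypoxia. In neither comparison did the groups overlap. The log2 changes of Lck were -0.73 (SE 0.26, edgeR adjusted p = 0.0290) and -1.14 (SE 0.26, adjusted p = 0.00132), the latter -0.71 (adjusted p = 0.00240) without replicate 5 of normoxia with ABT-263 and -0.57 (adjusted p = 0.00277) without both libraries. Zap70, the kinase that binds the zeta chain, changed by -0.65 (SE 0.16, adjusted p = 0.00317) and by -0.43 (SE 0.16, adjusted p = 0.0368), and the latter was -0.26 (adjusted p = 0.157) without replicate 5. Themis, an adaptor of thymic selection, passed under vehicle only, at -0.80 (SE 0.30, adjusted p = 0.0378).

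The remaining signalling genes gave smaller or less certain values. Lat, the adaptor, gave -0.31 (SE 0.15, edgeR adjusted p = 0.108) under vehicle and fell by 0.56 on the log2 scale under ABT-263 (SE 0.15, adjusted p = 0.00416), with -0.32 (adjusted p = 0.0205) without both libraries. Txk, a TEC family kinase, gave -0.50 (SE 0.30, adjusted p = 0.198) under vehicle and -1.12 (SE 0.31, adjusted p = 0.00595) under ABT-263. The latter was -0.66 (adjusted p = 0.0344) without replicate 5 of normoxia with ABT-263 and no longer passed without both libraries (-0.51, adjusted p = 0.0831). The difference of these changes in Txk was itself not past the threshold (interaction -0.62, SE 0.43, adjusted p = 0.991). Ubash3a gave -1.07 (SE 0.34, adjusted p = 0.0136) under ABT-263, from 0.213 to 0.492 CPM in hypoxia, and -0.82 (adjusted p = 0.0535) without replicate 5. Skap1, an adaptor that links the receptor to integrins, passed in neither comparison (-0.24, SE 0.18 and -0.37, SE 0.18).

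Of the 4 costimulatory and adhesion receptors tested, Cd27, Cd5 and Cd6 fell in both comparisons and Cd2 in neither. Cd27, a costimulatory receptor of the TNF receptor family, ran from 5.0 to 7.10 CPM (median 6.08) in the control and from 3.96 to 4.21 (median 4.01) in hypoxia with vehicle, which was the narrowest spread of the 27 genes in that group relative to its mean. Its log2 change was -0.60 (SE 0.14, edgeR adjusted p = 0.00193) under vehicle and -0.53 (SE 0.15, adjusted p = 0.00576) under ABT-263. Cd5, an inhibitory receptor, changed by -0.95 (SE 0.25, adjusted p = 0.00386) and -0.81 (SE 0.25, adjusted p = 0.0121). Cd6, its relative beside it on chromosome 19, changed by -0.66 (SE 0.24, adjusted p = 0.0322) and -0.84 (SE 0.24, adjusted p = 0.00808). Without both libraries the values under ABT-263 were -0.54 for Cd5 (adjusted p = 0.0968) and -0.54 for Cd6 (adjusted p = 0.0593). Cd2 ran from 14.8 to 18.9 CPM (median 17.8) in the control and from 13.4 to 23.2 (median 16.3) in hypoxia with vehicle, and its log2 change of -0.06 (SE 0.17) did not pass. Under ABT-263 Cd2 gave -0.44 (SE 0.18, adjusted p = 0.0501), just outside the threshold. It passed with other scalings and tools (DESeq2 adjusted p = 0.0368) but gave -0.15 (edgeR adjusted p = 0.440) without both libraries.

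The cytokine receptors differed from each other. Il7r, the alpha chain of the interleukin 7 receptor, ran from 6.72 to 11.3 CPM (median 9.92) in the control and from 4.98 to 7.89 (median 6.83) in hypoxia with vehicle, a log2 change of -0.54 (SE 0.15, edgeR adjusted p = 0.00775). With ABT-263 it ran from 7.02 to 11.2 (median 8.46) in normoxia and from 3.52 to 6.12 (median 4.97) in hypoxia, with no overlap, and changed by -0.84 (SE 0.16, adjusted p = 0.000215). That was the smallest p of the 27 genes under ABT-263, and the value without both libraries was -0.81 (adjusted p = 0.00124). Il2ra, the alpha chain of the interleukin 2 receptor, which activated and regulatory T cells carry, had control levels from 0.693 to 1.45 CPM (median 1.05) and from 0.664 to 1.93 (median 1.19) in hypoxia with vehicle. Its log2 values were 0.11 (SE 0.24) and -0.16 (SE 0.24), neither past the threshold.

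Of the transcription factors, Tcf7, Lef1, Bcl11b and Gata3 fell in both comparisons and Foxp3 in neither. Lef1 ran from 5.67 to 8.44 CPM (median 6.62) in the control and from 2.24 to 3.99 (median 3.57) in hypoxia with vehicle. With ABT-263 it ran from 4.57 to 6.48 (median 4.93) in normoxia and from 1.93 to 3.98 (median 3.07) in hypoxia, so normoxic and hypoxic libraries did not overlap in either comparison. The log2 change of Lef1 was -1.0 (SE 0.17, edgeR adjusted p = 7.35e-05) under vehicle, the smallest p of the 27 genes there, and -0.82 (SE 0.18, adjusted p = 0.000713) under ABT-263. Bcl11b had the largest change under vehicle, -1.14 (SE 0.28, adjusted p = 0.00205), from 1.74 to 3.91 CPM (median 3.05) in the control to 0.713 to 1.76 (median 1.43) in hypoxia, where the groups overlapped slightly. Under ABT-263 Bcl11b gave -0.83 (SE 0.28, adjusted p = 0.0219) with -0.66 (adjusted p = 0.0679) without replicate 5 of normoxia with ABT-263 and -0.53 (adjusted p = 0.149) without both libraries.

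Gata3 ran from 9.16 to 14.6 CPM (median 12.3) in the control and from 5.48 to 8.06 (median 7.06) in hypoxia with vehicle, without overlap, and changed by -0.81 (SE 0.15, edgeR adjusted p = 0.000119) and under ABT-263 by -0.59 (SE 0.15, adjusted p = 0.00250). Tcf7 changed by -0.67 (SE 0.13, adjusted p = 0.000185) under vehicle and by -0.44 (SE 0.13, adjusted p = 0.00793) under ABT-263. In replicate 5 of normoxia with ABT-263, Gata3 was inside the range of the other libraries and Tcf7 was 21.8 CPM against at most 20.6. Foxp3, the factor of regulatory T cells, had control levels from 0.503 to 1.03 CPM (median 0.763) and from 0.523 to 1.05 (median 0.835) in hypoxia with vehicle. The log2 values of Foxp3 were 0.08 (SE 0.30) and -0.31 (SE 0.31), neither past the threshold, and with 4 to 22 counts per library they are imprecise.

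In all, 11 of the 27 genes had every hypoxic library below every control library under vehicle, where 6.93% of all genes did. They were Trac, Trbc2, Cd3e, Cd3g, Cd8a, Lck, Cd27, Cd5, Tcf7, Lef1 and Gata3. Under ABT-263 there were 4 (Cd3e, Lck, Il7r and Lef1), where 5.48% of all genes did. The calls varied when 1 library was left out at a time. Under vehicle the number lower ran from 14, without replicate 1 of the control, to 19, and 14 of the 18 calls held in all 24 runs. Lef1, Tcf7, Gata3, Trac, Trbc2, Cd3e, Cd8a and Il7r were among these. Themis missed the threshold in 8 runs, Lck in 6, Cd6 in 5 and Cd247 in 4, with adjusted p up to 0.102, 0.0616, 0.0815 and 0.0834. Leaving out replicate 1 or 2 of the control was enough for each of the 4. Under ABT-263 the number ran from 16 to 22 and 15 of the 21 calls held in all runs. Cd247 missed in 16 runs (adjusted p up to 0.242), Zap70 in 7 (0.157), Cd3d in 5 (0.165), Bcl11b in 3 (0.0679), Cd4 in the run without replicate 1 of normoxia with ABT-263 (0.0722) and Ubash3a in the run without replicate 5 (0.0535). All of these but Cd4 missed without replicate 5 of normoxia with ABT-263.

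**Figure D4:**
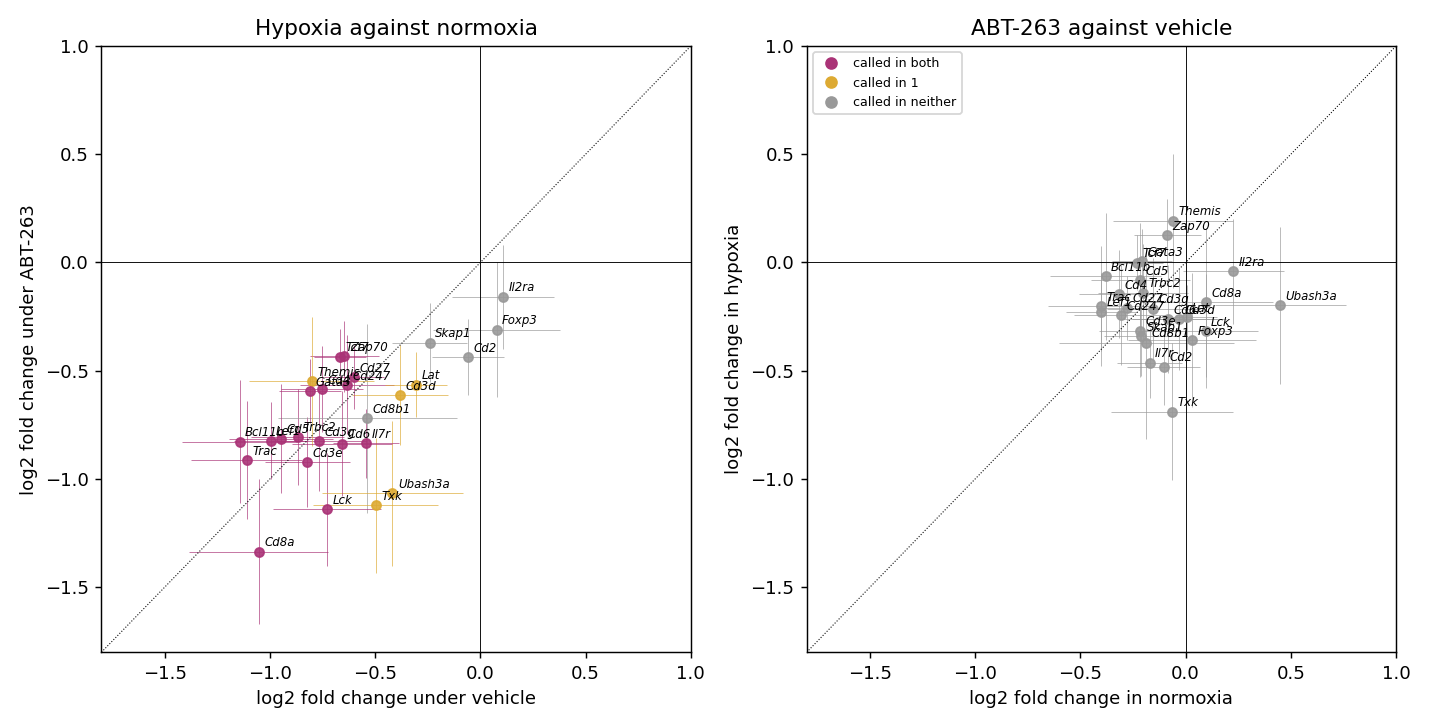
Log2 fold changes of the 27 genes (points, bars are SE), with hypoxia against normoxia under vehicle and under ABT-263 on the left and ABT-263 against vehicle in normoxia and in hypoxia on the right. The dotted line marks equal values. On the left 17 genes were called in both, and on the right none was called. The share of all genes called in both was not counted.

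ABT-263 itself changed none of the T cell genes past the threshold. Against vehicle, edgeR called 0 of 27 in normoxia, 0 in hypoxia and 0 on the average of both oxygen levels, as did DESeq2 and limma-voom. At an unadjusted p under 0.05 there were 1, 3 and 5 of the 27, and 1154, 543 and 979 of all 16935 genes. Of all genes tested 0.0413% passed in normoxia, 0% in hypoxia and 0.165% on the average, so few genes of any kind passed. The median log2 values of the 27 were -0.17 in normoxia, -0.21 in hypoxia and -0.17 on the average, against 0.01 for all genes in each. These comparisons share libraries with the hypoxia comparisons and are not independent of them. The lowest unadjusted p on the average belonged to Il7r at -0.32 (SE 0.11, edgeR unadjusted p = 0.00837, adjusted p = 0.502). Il7r gave -0.17 (SE 0.15) in normoxia and -0.46 (SE 0.16, adjusted p = 1) in hypoxia. Lef1 gave -0.40 (SE 0.17, adjusted p = 0.643) in normoxia and -0.23 (SE 0.18) in hypoxia. Cd2 gave -0.48 (SE 0.18) and Txk -0.69 (SE 0.32) in hypoxia, neither past the threshold. Cd3e gave -0.21 (SE 0.20) and -0.31 (SE 0.21), so a moderate lowering by the drug was neither shown nor set aside at this spread. Among the 16 B cell markers measured beside them, 7 fell on the average of both oxygen levels with a median log2 value of -0.64. The difference between the T cell genes and the B cell markers was not tested. Cxcr5, which follicular T cells and B cells carry, is on both the homing list and the B cell list. It is 1 of the 7 B cell markers just counted and fell by 0.77 on the log2 scale on that average (SE 0.13, adjusted p = 0.00973). Btla, an inhibitory receptor of T and B cells, gave -0.55 (SE 0.12, adjusted p = 0.0716) and did not pass the threshold.

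The balance between genes was compared as log2 ratios of 10 gene pairs in 4 comparisons, each by an exact two-sided permutation of 12 libraries with adjustment over 40 tests. None passed, but the smallest p this permutation can give is 0.00216, at which no single ratio could pass the adjustment alone. The absence of calls therefore says little about the balance between genes. At an unadjusted p under 0.05 there were 8 ratio tests, of which 6 were for hypoxia under vehicle. The lowest was Cd3e to Ncr1, T cells against NK cells, which was 0.03 ± 0.24 in the control and, with the drug vehicle, -0.57 ± 0.35 in hypoxia (SD, n = 6 per group), a difference of -0.60 (exact permutation p = 0.00433, adjusted 0.173). Under ABT-263 the same ratio differed by 0.06 between hypoxia and normoxia (exact permutation p = 0.909), or by -0.27 without replicate 5 of normoxia with ABT-263, in which Ncr1 was high. In hypoxia it was 0.58 higher with ABT-263 than with vehicle (exact permutation p = 0.0238, adjusted 0.190). Foxp3 to Cd4 was -2.45 ± 0.60 in the control and -1.68 ± 0.28 in hypoxia with vehicle, a difference of 0.77 (exact permutation p = 0.0173, adjusted 0.173). Cd8b1 to Cd8a differed by 0.63 in the same comparison (exact permutation p = 0.0173, adjusted 0.173) and Cd8a to Cd4 by -0.32 (exact permutation p = 0.0433, adjusted 0.216). Il2ra to Il7r differed by 0.61 under vehicle (exact permutation p = 0.0433, adjusted 0.216) and by 0.70 under ABT-263 (exact permutation p = 0.00866, adjusted 0.173). Cd3e to Ptprc, which sets T cells against all leukocytes, was -4.60 ± 0.32 in the control and -5.03 ± 0.26 in hypoxia with vehicle (exact permutation p = 0.0325, adjusted 0.216).

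Other genes of the same pathways were read from lists that hold none of the 30. Their counts stand beside the 16.8% of all genes that fell and the 18.9% that rose under vehicle. Under ABT-263, 19.4% of all genes fell and 21.6% rose. Of 31 further genes of receptor signalling, 13 (41.9%) fell and 1 rose under vehicle and 13 fell and 1 rose under ABT-263, where 9 (29%) fell without the 2 libraries that stood apart. The 3 with the smallest p under vehicle were Dgkz and Dgka, kinases that remove the messenger diacylglycerol, at -0.56 (SE 0.09, edgeR adjusted p = 5.0e-05) and -0.55 (SE 0.11, adjusted p = 0.000236), and Nfatc2, a calcium-driven transcription factor, at -0.77 (SE 0.19, adjusted p = 0.00275). Of 16 homing and residency genes tested, 4 (25%) fell and 1 rose under vehicle and 5 fell and 0 rose under ABT-263, the latter 2 (12.5%) and 1 without replicate 5 of normoxia with ABT-263. The integrin chain Itgb7 changed by -0.90 (SE 0.18, adjusted p = 0.000341) and the chemokine receptor Cxcr3 by -1.07 (SE 0.32, adjusted p = 0.00993) under vehicle. Itgal, the alpha chain of the integrin LFA-1, gave -0.54 (SE 0.17, adjusted p = 0.0152). Of 21 subset regulators and effectors tested, 4 (19%) fell under vehicle, a share near that of all genes, and 10 fell under ABT-263, and 0 rose in either. Without replicate 5 of normoxia with ABT-263, 8 fell and 1 rose under vehicle, where it is in neither group compared, and 6 fell and 1 rose under ABT-263. Among them under vehicle were Satb1 at -0.51 (SE 0.11, adjusted p = 0.000687), Il21r at -0.57 (SE 0.13, adjusted p = 0.00108) and Ikzf2 at -0.53 (SE 0.17, adjusted p = 0.0161).

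Gamma delta T cells carry another receptor, and of 7 of their genes tested 3 fell under vehicle and 5 under ABT-263, with 4 in the latter without both libraries. Under vehicle the constant regions Tcrg-C1 and Tcrg-C4 changed by -0.86 (SE 0.24, edgeR adjusted p = 0.00696) and -0.97 (SE 0.32, adjusted p = 0.0200), and Trdc by -0.68 (SE 0.26, adjusted p = 0.0389). Near-identical gamma constant regions can share reads, so these are uncertain as single genes. Markers of other cells were counted in the same comparisons. Of all genes, 16.8% fell and 18.9% rose under vehicle, and 19.4% fell and 21.6% rose under ABT-263. Of 15 NK markers, 0 passed under vehicle and 12 fell under ABT-263, with median log2 values of -0.28 and -1.46. The count and median under ABT-263 rest on replicate 5 of normoxia, at 837 CPM for these markers: without it 4 fell and 1 rose, with a median of -0.15. Without replicate 1 of hypoxia with ABT-263 alone, 6 fell. The other 5 libraries of that group summed to 109 to 160 CPM and hypoxia with ABT-263 to 99.1 to 176, so those ranges overlapped. Under vehicle, 3 NK markers fell and 1 rose without that library, which is in neither group compared there. Of 16 B cell markers 2 (12.5%) fell under vehicle, a share below that of all genes, and 9 fell under ABT-263, or 7 without both libraries and 6 without replicate 1 of hypoxia with ABT-263 alone. Of 10 dendritic cell markers 5 and 6 fell, the latter 4 without both libraries. Of 10 markers of all leukocytes 2 (20%) and 3 fell, with medians of -0.15 and -0.31, and under ABT-263 0 fell without replicate 5 of normoxia (median -0.05). Of 9 neutrophil markers tested 2 rose and 2 fell under vehicle and 3 rose and 1 fell under ABT-263, or 5 and 1 without both libraries. Of 10 markers of lung structure 1 rose and 0 fell under vehicle and 0 rose and 1 fell under ABT-263, or 0 and 0 without both libraries. The part of these other cells in the T cell result was not tested.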

How the data were processed

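Per the submitters' processing notes, reads were processed with Trimmomatic, STAR and RSEM on the GRCm38 build. Their versions, the annotation and the strand setting are not given here. Per the labels' protocols, libraries came from a stranded mRNA kit. The deposited values are the authors' RSEM expected counts, 1 column per library, of which 91.8% were whole numbers, with 0 columns left unmapped. They were rounded to whole numbers. RSEM divides reads between near-identical or overlapping genes by estimation; by GENCODE M21, 12 of the 30 genes overlap a gene on the same strand and 11 one on the opposite strand.

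edgeR 4.0.16 in R 4.3.3 removed low genes (filterByExpr, minimum count 10), scaled by TMM and fitted the quasi-likelihood F test robustly, with 1 mean per group and 20 residual degrees of freedom, to all 24 libraries. P-values were adjusted by Benjamini-Hochberg over 16935 genes, and an adjusted p under 0.05 is a call. Log2 fold changes carry SE, from the F statistic. Levels are TMM-scaled CPM with mean ± SD or range. Ratios used log2(CPM + 0.1) and all 924 splits of 6 against 6, whose smallest p is 0.00216. At these totals counting error weighs most on genes with few counts. No pair of libraries in any group matched to within sampling noise (lowest chi-square per degree of freedom 6.95 over 60 pairs). Alternatives were DESeq2 1.42.0, limma 3.58.1 (voom), other scalings and filters, the first residual component as covariate, only the groups compared, and each library left out. The fits without the libraries that stood apart, and the list counts from them, were chosen after seeing the data.

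The T cell genes and all lists were chosen with earlier results of these data known. All 30 genes are named; of other T cell lists, those with the smallest p under vehicle; of other cell lists, counts only, except where a named gene bears on a library. Promoters came from RefSeq (GRCm38.p6). A gene pair and a list gene named by the rule are not reported here.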

Additional observations from a re-analysis of the deposited data

Results flagged for a closer look

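Each gene was examined in each group for a library far from the other 5 (Dixon's test at its critical value for 6 libraries). Of 108 tests 18 were past it, and chance alone gives about 1 in 20. Replicate 5 of normoxia with ABT-263 gave 14 of them, all high: Trac 10.2 CPM, Trbc2 23.1, Cd3d 26.6, Cd3g 14.9, Cd247 12.5, Cd8a 25.1, Cd8b1 11.8, Lck 49.0, Zap70 13.4, Lat 18.7, Txk 9.44, Skap1 8.02, Cd2 26.3 and Cd6 5.67 CPM. These flags share 1 library and are not separate events. Beside them, the transcription factors Eomes and Tbx21 were 9.0 and 11.2 CPM in that library against medians of 1.19 and 1.43 in the other 5. Both are on the list of T cell subset regulators and effectors, and Eomes is also on the NK list. Replicate 6 of hypoxia with vehicle was high for Trac, at 5.27 CPM, and for Cd2, at 23.2 CPM. Replicate 2 of the control group was high for Cd3g at 13.2 CPM, and replicate 5 of hypoxia with ABT-263 was high for Cd4 at 4.19 CPM. Replicate 1 of hypoxia with ABT-263, the other library taken above to stand apart, was not flagged for any gene.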

How the results depend on the processing

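The number of T cell genes lower in hypoxia stayed within 1.5 times of its value, and the number higher stayed at 0, under every alternative run except 1. Under ABT-263 it dropped from 21 to 10 without the 2 libraries that stood apart, an alternative chosen after seeing the data, which leaves fewer libraries. With 1 library left out it ran from 14 to 19 under vehicle and from 16 to 22 under ABT-263. With no filter on low counts it was 14 and 18, and with only the groups compared 21 and 17. The counts for ABT-263 against vehicle, the interaction and the ratios stayed at 0. For the ratios this says little, because no single ratio could pass at the smallest possible p. Values that turned sign were all short of the threshold. Under ABT-263 in hypoxia, Cd8b1 became 0.14 without the 2 libraries, and the log2 ratio Lef1 to Cd3e became -0.0188 with a pseudocount of 0.5; the cause was not tested. With 1 library left out, hypoxia under vehicle ran from -0.0871 to 0.233 for Il2ra, from -0.0224 to 0.18 for Foxp3 and from -0.164 to 0.11 for Gata3 to Cd3e. Under ABT-263 it ran from -0.996 to 0.00352 for Cd8b1, from -0.0846 to 0.152 for Lef1 to Cd3e and from -0.271 to 0.227 for Cd3e to Ncr1. ABT-263 in normoxia ran from -0.529 to 0.0502 for Txk. Among all genes called for hypoxia under vehicle, the share lower was 47.0% with TMM, 57.6% with total counts and 44.9% with DESeq2's size factors. No paired analysis was possible because the labels give no replicate numbers and tie no libraries across groups. Depth limits Cd28, Icos, Ctla4, Ubash3a, Foxp3 and Il2ra most.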

Other observations

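The variable segments of the T cell receptor genes, which are few counts each, are given as sums with no test. They summed to 6.39 ± 1.11 CPM in normoxia with vehicle and 5.01 ± 1.03 CPM in hypoxia with vehicle. With ABT-263 the sums were 4.92 ± 2.44 CPM in normoxia and 4.56 ± 1.41 CPM in hypoxia (SD, n = 6 each). Beta chain segments made up most of this, with 5.35 ± 1.08 CPM in the control group. Between 27 and 36 segments had a count in each control library and between 21 and 30 in each library of hypoxia with vehicle. With ABT-263 there were between 16 and 33 in normoxia and between 22 and 31 in hypoxia. These numbers are not scaled for library size.

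Of 6 thymocyte markers tested, 4 fell in hypoxia under vehicle and 2 under ABT-263, where 16.8% and 19.4% of all genes fell. Cd1d1, a lipid antigen-presenting molecule also found on other cells, changed by -0.78 (SE 0.14, edgeR adjusted p = 0.000118), and the chemokine receptor Ccr9 by -0.81 (SE 0.28, adjusted p = 0.0249). Themis and Satb1, which are given above, were the others. Of 7 group 2 innate lymphoid cell markers tested, 1 fell and 1 rose under vehicle, where 16.8% of all genes fell and 18.9% rose. Under ABT-263, 3 fell and 2 rose, where 19.4% of all genes fell and 21.6% rose. Counts without the libraries that stood apart are not given for this list. Areg, a growth factor made by many cells, rose by 1.10 on the log2 scale under vehicle (SE 0.24, edgeR adjusted p = 0.00102). In that comparison Il1rl1, the interleukin 33 receptor, changed by -0.62 (SE 0.15, adjusted p = 0.00188). Gata3, which these cells also use, fell in the same comparison.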
